A study of Danio rerio with 3 samples.

Results

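Genes that acidify the lysosome and report nutrients from its surface were examined in muLECs, the mural lymphatic endothelial cells of the study's title, from the brains of adult wildtype zebrafish. Members were chosen by symbol: genes whose Ensembl symbol starts with atp6v, atp6ap, clcn, mcoln, tpcn, lamtor or rrag, together with ostm1, mtor, rptor, flcn and the transcription factor genes tfeb, tfe3, tfec and mitf. This gave 66 of the 32105 gene IDs in the count table. The cells were collected by flow sorting on a DsRed reporter driven by lyve1, a hyaluronan receptor gene of lymphatic vessels, after enzymatic digestion of the tissue. They formed 1 group, muLEC, of 3 libraries, each made from a pool of 6 brains, and the RNA was amplified before sequencing. There was no other cell population, so a level could be set only against other genes of the same cells.

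The vacuolar ATPase (V-ATPase) is a rotary proton pump with a peripheral V1 domain that splits ATP and a membrane V0 domain that carries protons. Chloride/proton exchangers of the ClC family balance the charge of the pumped protons, and mucolipins release calcium from the lysosome. On the cytosolic face of the lysosome the Ragulator complex, built of LAMTOR subunits, anchors the Rag GTPases. These recruit the kinase complex mTORC1 when amino acids are plentiful. MiT/TFE transcription factors such as TFEB drive lysosomal genes when mTORC1 is inactive. In zebrafish, brain lymphatic endothelial cells of this kind are known for taking up material from the surrounding fluid.

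The libraries held between 34307745 and 36044297 reads in genes. Levels are given as reads, or as CPM, which are counts scaled to library depth with factors from the trimmed mean of M values (TMM). Gene lengths were not used here, so the levels below are reads and not reads per length, and they set no order of abundance between genes. Of 7 gene IDs matched from a list of lymphatic endothelial markers, 6 stood above the median gene by the test described below, beside 23.4% of all tested genes. These 6 include lyve1b, with 24766, 14590 and 26265 reads in replicates 1, 2 and 3. The cells were sorted on a lyve1 reporter, so the lyve1b call is not independent of the sort. The 6 were led by MRC1 with 143178, 148871 and 154604 reads in the same order. The remaining gene, PROX1, had 614, 1213 and 1 reads and did not pass. For pan-endothelial markers 6 gene IDs were matched, 5 were tested and 4 stood above, beside the same 23.4%. Of that list TIE1 had 656, 11 and 2114 reads and did not pass, and cdh5 had 0, 3 and 0. At least 10 reads were found for 7472, 6117 and 9739 genes in replicates 1, 2 and 3, so replicate 2 covered the fewest genes and replicate 3 the most. In sorted bulk RNA, fewer cells of a type and less RNA per cell cannot be told apart.

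Members of the pump and the nutrient sensing machinery were detected in a larger share than genes at large, and their coverage ranged from well read to unread genes. Of the 66 members, 32 (48.5%) had 10 or more reads in a pair of libraries or in all 3, beside 25.8% of the 26269 gene IDs with a symbol. In all 3 libraries 25 members (37.9%) reached that count, beside 15.0%. A further 11 members (16.7%, beside 17.4%) reached 10 reads in a single library. The remaining 23 (34.8%, beside 56.8%) stayed under 10 reads in every library, with at most 5 reads. Of these 23, 12 had 0 reads throughout, which allows up to 0.0794, 0.107 and 0.0729 CPM in replicates 1, 2 and 3, the level of 3 reads, for counting error alone.

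**Figure D1:**
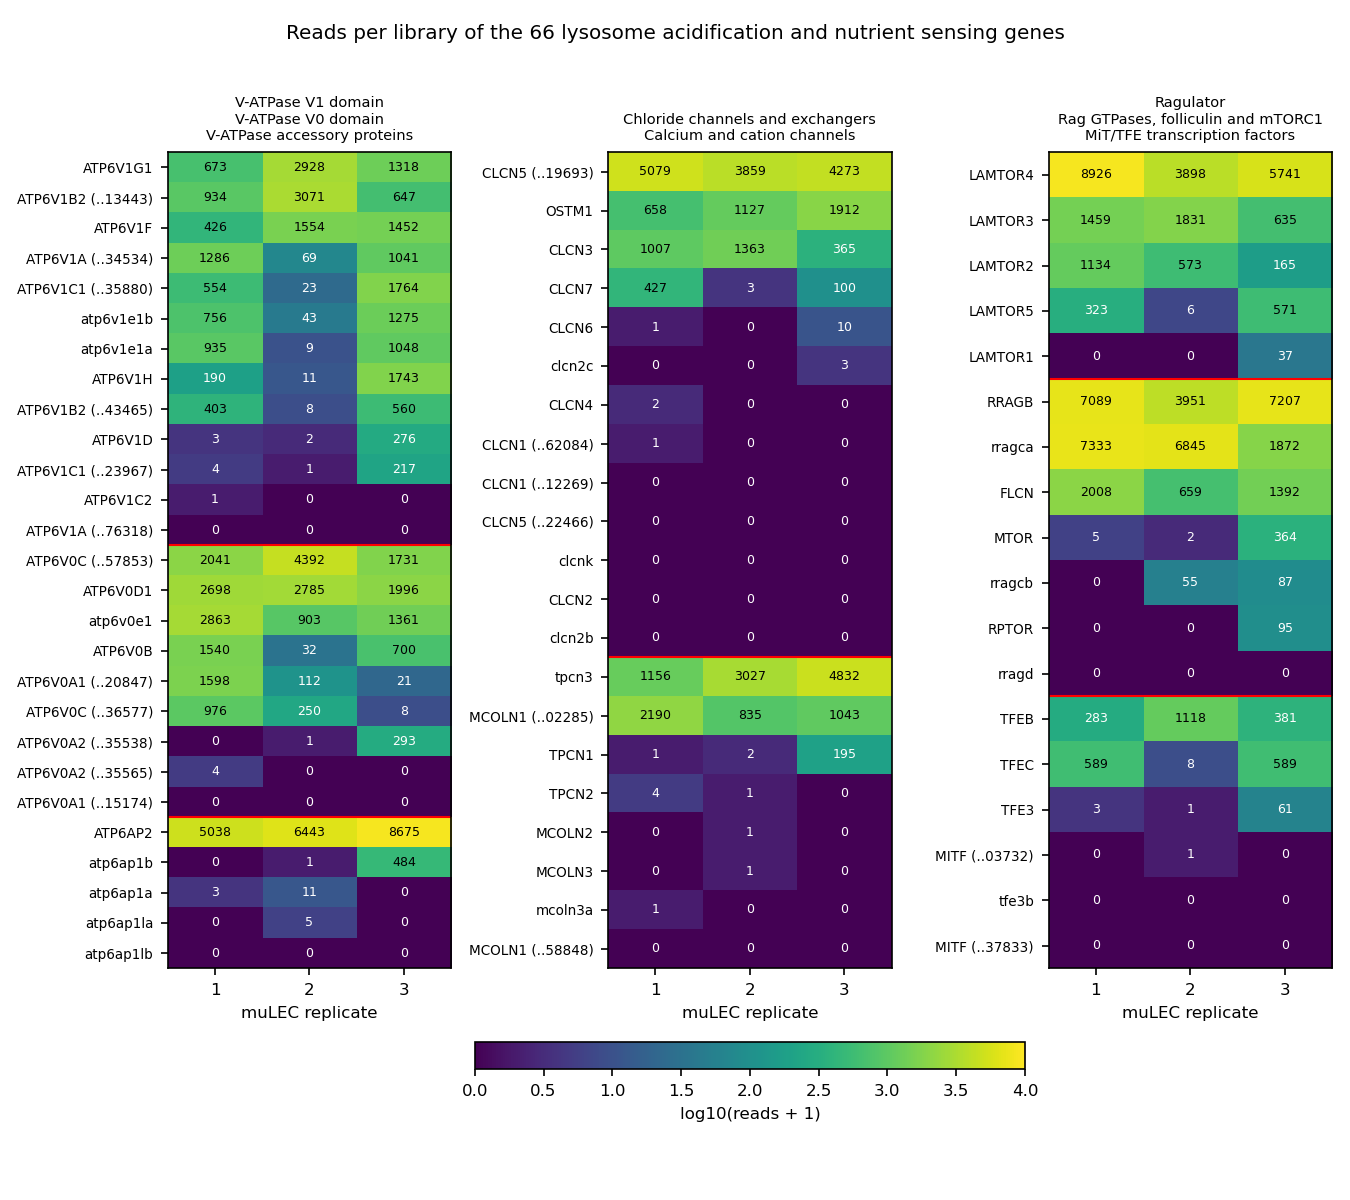
Reads of each of the 66 members in the 3 muLEC libraries, with the count printed in each cell and colour on a log10(reads + 1) scale. Red lines part the role groups named above each panel, and the last 5 digits of the gene ID mark copies that share a symbol. ATP6AP2, LAMTOR4, RRAGB, rragca, CLCN5 and ATP6V0D1 were well read in all 3 libraries, with at least 1872 reads each, whereas most ClC and mucolipin copies had at most 3 reads.

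**Figure D2:**
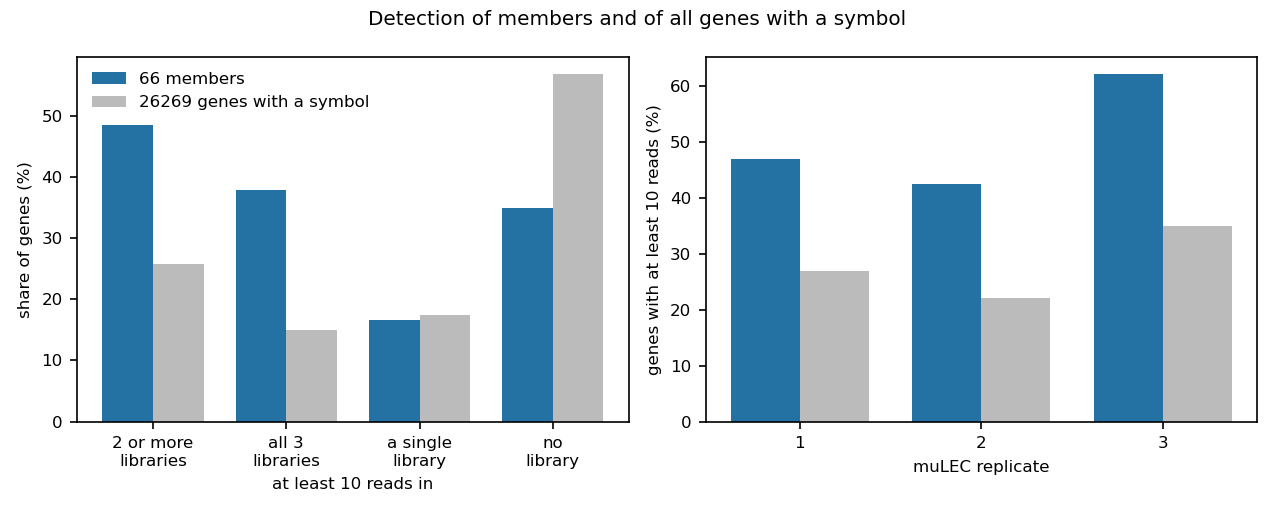
Left, the share of the 66 members (blue) and of the 26269 gene IDs with a symbol (grey) with at least 10 reads in 2 or more libraries, in all 3, in a single library or in none. Right, the share with at least 10 reads in each library. Members were read more often than genes at large in every library, with 47.0%, 42.4% and 62.1% of members in replicates 1, 2 and 3 beside 26.9%, 22.2% and 35.0%.

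The 32 members that passed the filter were set against the median tested gene, at 12.6, 11.7 and 12.7 CPM in replicates 1, 2 and 3, with edgeR's quasi-likelihood test at a Benjamini-Hochberg adjusted p under 0.05 over all 7111 tested genes. The test is on reads, so gene length enters the ratio. Of the 32, 13 stood above the median gene, 0 below and 19 did not pass, beside 23.4% of all tested genes above and 1.24% below. DESeq2 placed 11 members above, beside 22.3% of all tested genes, and 0 below, beside 0.0%. With limma-trend 14 members lay above, beside 23.0%, and 1 below, beside 14.7%. An unadjusted p under 0.05 put 0 members below with edgeR. The median log2 ratio of the 32 members was 1.35, beside 0.22 over all tested genes. The 32 are the members that were read, so these figures do not describe all 66. The size of a ratio depends on the libraries kept, which change both a gene's own level and the genes that set the median. The part of each was not tested. The tested genes numbered 5065, 5818 and 4444 without replicates 1, 2 and 3. The log2 ratios of the 13 called members then shifted by a median of -0.93, -0.65 and -0.96.

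**Figure D3:**
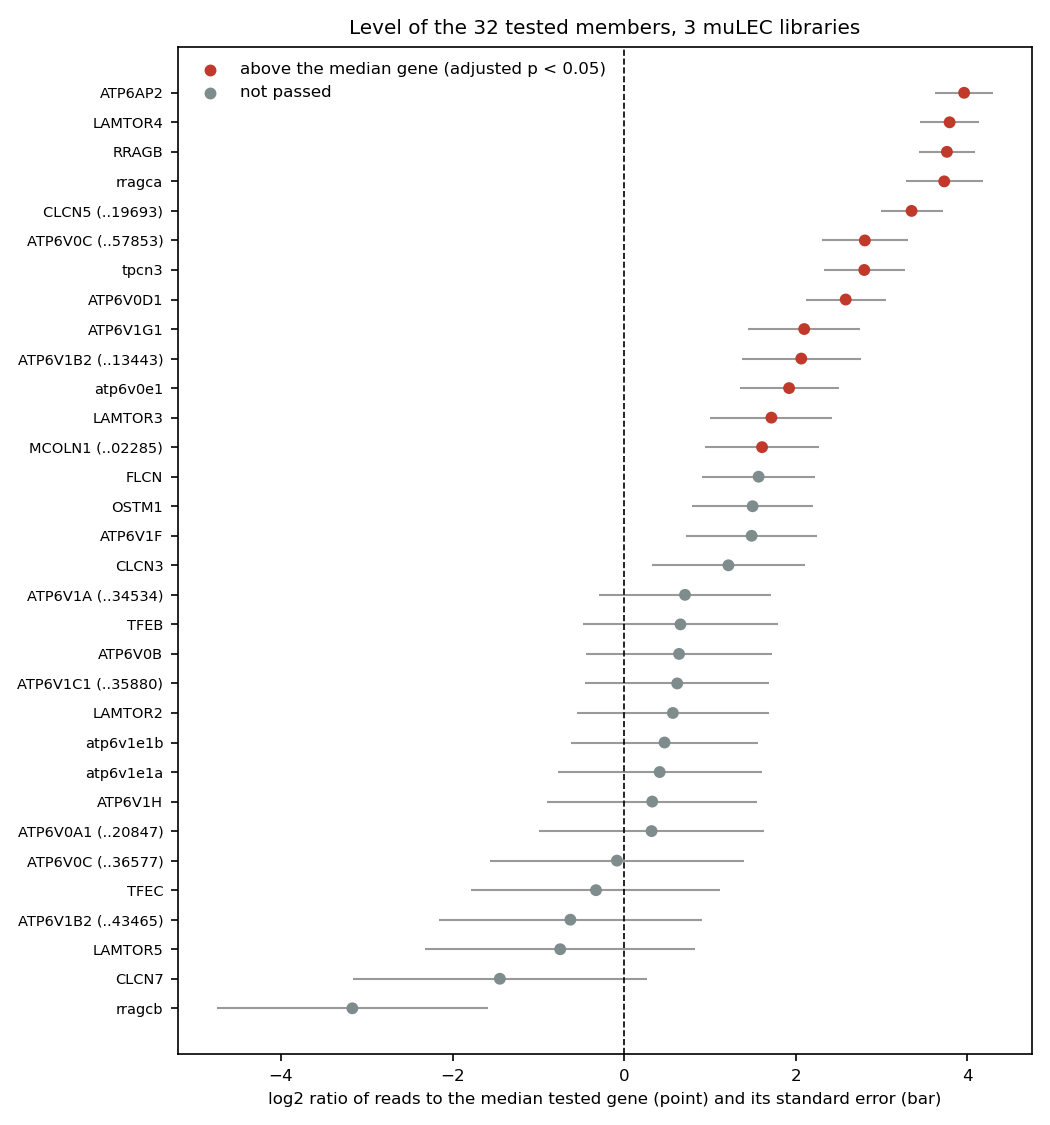
Log2 ratio of reads to the median tested gene for the 32 tested members (points), with the standard error (bars), from 3 muLEC libraries. Red points passed at an adjusted p under 0.05 and grey points did not; the dashed line is the median gene. The 13 called members lay between 1.61 for MCOLN1 and 3.96 for ATP6AP2, and the standard errors widened from 0.33 for RRAGB to 1.71 for CLCN7.

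Subunits of the V1 domain were read for 7 of its 8 subunits, with the central stalk subunit D as the exception, and 2 of the 8 had a copy above the median gene. Of 13 V1 gene IDs 9 were tested, 2 stood above, beside 23.4% of all tested genes, and 7 did not pass. ATP6V1G1, the G subunit of a peripheral stalk, had 673, 2928 and 1318 reads in replicates 1, 2 and 3, a mean of 51.5 ± 46.5 CPM (SD, n = 3) and a log2 ratio of 2.10 ± 0.65 (SE; edgeR adjusted p = 0.00656). The B subunit gene ATP6V1B2 (ENSDARG00000013443) had 24.7, 109.7 and 15.7 CPM, a mean of 50.1 ± 51.9 (SD, n = 3) and a log2 ratio of 2.07 ± 0.70 (SE; edgeR adjusted p = 0.0116). Both were highest in replicate 2. Without replicate 2 their means were 24.9 and 20.2 CPM and both calls were lost, at log2 ratios of 0.57 and 0.23. ATP6V1G1 also lost its call without replicate 3 (1.07), where its mean was 61.2 CPM. ATP6V1B2 lost its call without replicate 1 (1.31) and without replicate 3 (1.22), where its means were 62.7 and 67.2 CPM. These means were higher than those over all 3 libraries. Summed markers of 3 other cell classes were also highest in replicate 2, while those of macrophages and microglia were highest in replicate 3. The lymphatic endothelial markers were highest in replicate 2 as well, at a summed 5509, 7041 and 5546 CPM in replicates 1, 2 and 3. The pan-endothelial markers were highest in replicate 1, at a summed 1213, 1102 and 982 CPM. For oligodendrocytes 6 gene IDs were matched, of which 3 stood above the median gene, with a summed level of 673, 2391 and 783 CPM in replicates 1, 2 and 3, mostly mbpa, while OLIG2 had 1, 0 and 0 reads. For pericytes and smooth muscle 7 were matched and 2 stood above (RGS5 and TAGLN), at a summed 373, 927 and 150.2 CPM, while PDGFRB had 1, 0 and 0 reads and CSPG4 had 0. For neurons 9 were matched and the 6 tested did not pass, at a summed 28.9, 87.4 and 43.9 CPM, while ELAVL3 had 1, 0 and 1 reads. The neuron genes did not move as one: nefla had 18, 1006 and 10 reads, gap43 had 0, 0 and 282, and the SNAP25 copies had 229, 970 and 621 and 825, 8 and 483. Their part in the levels of ATP6V1G1 and ATP6V1B2, or of ATP6V0C and TFEB below, was not tested.

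Most other V1 genes were low in replicate 2 instead. The catalytic subunit gene ATP6V1A (ENSDARG00000034534) had 1286, 69 and 1041 reads in replicates 1, 2 and 3. The C subunit gene ATP6V1C1 (ENSDARG00000035880), which links the pump's domains during assembly, had 554, 23 and 1764 reads. The copies of the E subunit, a stator stalk protein, ran in parallel, with 935, 9 and 1048 reads of atp6v1e1a and 756, 43 and 1275 reads of atp6v1e1b. ATP6V1H, the regulatory H subunit, had 190, 11 and 1743 reads, and the second B subunit copy, ENSDARG00000043465, had 403, 8 and 560. These 6 genes did not pass, with adjusted p values from 0.784 to 0.943 by edgeR. ATP6V1F, a central stalk subunit, differed in having its fewest reads in replicate 1, with 426, 1554 and 1452, and did not pass either (log2 ratio of 1.49 ± 0.77 SE; edgeR adjusted p = 0.134).

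Some V1 genes had reads in a single library or almost none. ATP6V1D, the D subunit, had 3, 2 and 276 reads, and the second ATP6V1C1 copy (ENSDARG00000023967) had 4, 1 and 217. Both stood over 10 reads in replicate 3 alone. The second ATP6V1A copy (ENSDARG00000076318) had 0 reads throughout and ATP6V1C2, a C subunit form with a restricted tissue distribution in mammals, had 1, 0 and 0.

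The membrane V0 domain was covered for all 5 of its subunits, and 3 of them had a copy above the median gene. Of 9 V0 gene IDs 6 were tested, 3 stood above, beside 23.4% of all tested genes, and 3 did not pass. ATP6V0C (ENSDARG00000057853), the proteolipid that forms most of the proton-carrying ring, had 54.0, 156.9 and 42.1 CPM in replicates 1, 2 and 3, a mean of 84.3 ± 63.1 (SD, n = 3) and a log2 ratio of 2.81 ± 0.50 (SE; edgeR adjusted p = 3.44e-05). Its mean without replicate 2 was 48.1 CPM. ATP6V0D1, the d subunit that couples the ring to the central stalk, had 71.4, 99.5 and 48.5 CPM, a mean of 73.1 ± 25.5 (SD, n = 3) and a log2 ratio of 2.58 ± 0.46 (SE; edgeR adjusted p = 4.71e-05). All 3 libraries of ATP6V0D1 lay over 3 times the median gene, and neither gene lost its call without any 1 library, at log2 ratios of 1.49 to 2.02 for ATP6V0C and 1.62 to 1.80 for ATP6V0D1. The small e subunit gene atp6v0e1 had 75.8, 32.3 and 33.1 CPM, with a log2 ratio of 1.92 ± 0.58 (SE; edgeR adjusted p = 0.00617). It no longer passed without replicate 1, the library where it was highest (0.56), or without replicate 3 (1.04). Its mean of 47.0 CPM was 32.7 without replicate 1 and 54.0 without replicate 3.

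The V0 genes that did not pass were uneven. The proteolipid-like subunit gene ATP6V0B had 1540, 32 and 700 reads. ATP6V0A1 (ENSDARG00000020847), an a subunit that carries protons to and from the ring, had 1598, 112 and 21 reads, and did not pass, although without replicate 1 it was called below the median gene, at -3.50. The second ATP6V0C copy (ENSDARG00000036577) had 976, 250 and 8 reads. Reads of ATP6V0A2, another a subunit that is found on the Golgi and endosomes in mammals, were 0, 1 and 293 for one copy and 4, 0 and 0 for the other, and the second ATP6V0A1 copy had 0. TCIRG1, the a3 form, lies outside the symbol rule and is given with the other pathway genes below. How reads of closely similar copies were assigned is unknown, so the split between copies of 1 subunit is uncertain.

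Among accessory proteins of the pump, ATP6AP2 was well read in every library and its partner gene was not. ATP6AP2, the (pro)renin receptor, which is needed for V-ATPase assembly, had 133, 230.2 and 210.9 CPM in replicates 1, 2 and 3, a mean of 191 ± 51.2 (SD, n = 3). Its log2 ratio to the median gene was 3.96 ± 0.34 (SE; edgeR adjusted p = 4e-09), and 2.70 to 3.35 with a library left out, lowest without replicate 3. The copies of ATP6AP1, another accessory glycoprotein of V0, had 0, 1 and 484 reads (atp6ap1b) and 3, 11 and 0 reads (atp6ap1a), and the ATP6AP1-like genes atp6ap1la and atp6ap1lb had at most 5 reads in a library.

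Of the ClC genes, those of endosomes and lysosomes held nearly all the reads. The 6 gene IDs of plasma membrane channels (both CLCN1 copies, CLCN2, clcn2b, clcn2c and clcnk) had at most 3 reads in a library. CLCN5 (ENSDARG00000019693), an exchanger of early endosomes that mammalian kidney needs for protein uptake, had 134, 138 and 104 CPM in replicates 1, 2 and 3. It was among the most even members, with a mean of 125 ± 18.7 (SD, n = 3) and a log2 ratio of 3.35 ± 0.36 (SE; edgeR adjusted p = 1.13e-07). The ratio was 2.32 to 2.80 with a library left out, lowest without replicate 3. CLCN3, of late endosomes, had 1007, 1363 and 365 reads and did not pass (log2 ratio of 1.22 ± 0.89 SE; edgeR adjusted p = 0.372).

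The lysosomal exchanger itself was thinly covered. CLCN7 had 427, 3 and 100 reads and did not pass. OSTM1, the membrane protein that ClC-7 needs for stability, had 658, 1127 and 1912 reads, or 17.4, 40.3 and 46.5 CPM. It did not pass either (log2 ratio of 1.499 ± 0.70 SE, edgeR adjusted p = 0.0936). The endosomal exchanger genes CLCN4 and CLCN6 had 2, 0 and 0 reads and 1, 0 and 10 reads. Of the 13 genes of this group 4 were tested, and CLCN5 alone stood above the median gene, beside 23.4% of all tested genes.

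Cation channels of the endolysosome were represented by 2 genes of 8, MCOLN1 and tpcn3. Both stood above the median gene, beside 23.4% of all tested genes. MCOLN1 (ENSDARG00000002285), the lysosomal calcium channel mutated in human mucolipidosis type IV, had 58.0, 29.8 and 25.4 CPM in replicates 1, 2 and 3. Its log2 ratio of 1.61 ± 0.66 (SE; edgeR adjusted p = 0.04997) lay at the edge of the threshold. The call was lost without replicate 1 (0.30), without replicate 3 (0.73) and with DESeq2. The mean of 37.7 CPM was 27.6 without replicate 1 and 43.9 without replicate 3. The other MCOLN1 copy had 0 reads, and MCOLN2, MCOLN3 and mcoln3a had at most 1.

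The channel gene tpcn3, of the TPC family of endolysosomal and surface cation channels, had 30.6, 108 and 117 CPM, a mean of 85.4 ± 47.7 (SD, n = 3). Its log2 ratio was 2.80 ± 0.47 (SE; edgeR adjusted p = 2.05e-05), and it no longer passed without replicate 3 (1.27). The other TPC genes were under the read filter: TPCN1 had 1, 2 and 195 reads and TPCN2 had 4, 1 and 0.

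Ragulator subunits differed widely in coverage although they act in 1 complex. LAMTOR4 had 236, 139 and 139.6 CPM in replicates 1, 2 and 3, a mean of 172 ± 55.9 (SD, n = 3) and a log2 ratio of 3.80 ± 0.34 (SE; edgeR adjusted p = 9.67e-09). With a library left out that ratio was 2.65 to 3.45, lowest without replicate 1. LAMTOR3, which pairs with LAMTOR2 in the complex, had 38.6, 65.4 and 15.4 CPM, with a log2 ratio of 1.72 ± 0.71 (SE; edgeR adjusted p = 0.0467). The LAMTOR3 call was lost without any 1 of the libraries, at log2 ratios of 0.71, 0.64 and 0.90 without replicates 1, 2 and 3, and with DESeq2. The LAMTOR3 mean of 39.8 CPM was 40.4, 27.0 and 52.0 without replicates 1, 2 and 3. LAMTOR2 had 1134, 573 and 165 reads and LAMTOR5, which pairs with LAMTOR4, had 323, 6 and 571, and neither passed. LAMTOR1, the lipid-anchored subunit that holds the complex on the lysosome, had 0, 0 and 37 reads. In the RefSeq annotation of the later GRCz12tu assembly, lamtor4 and atp6v1f are neighbours and each overlaps drd4-rs. There 15 of 66 genes matching the symbol rule overlap another coding gene. By RefSeq symbol these include atp6v0e1, atp6v1b2, ostm1, clcn3, lamtor1, lamtor5 and mtor. How reads in the overlaps were assigned was not tested.

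Rag GTPase genes of both sides of the heterodimer were well read, from 1 gene each. RRAGB, a symbol that RefSeq lists as a synonym of zebrafish rraga, had 188, 141 and 175 CPM in replicates 1, 2 and 3. Its mean was 168 ± 24.1 (SD, n = 3) and its log2 ratio 3.76 ± 0.33 (SE; edgeR adjusted p = 7.6e-09), with the smallest standard error of the 32 tested members. Leaving out a library gave ratios of 2.61 to 3.41 for RRAGB, lowest without replicate 3. Its partner rragca, of the RagC type, had 194, 244.5 and 45.5 CPM, a mean of 161 ± 103 (SD, n = 3) and a log2 ratio of 3.73 ± 0.45 (SE; edgeR adjusted p = 1.78e-07), or 2.53 to 2.99 with a library left out, lowest without replicate 1. Replicate 3 was thus low for rragca, while RRAGB was even over the libraries. The second RagC copy, rragcb, had 0, 55 and 87 reads and did not pass, although without replicate 1 it was called below the median gene, at -3.43, and rragd had 0 reads.

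Folliculin did not pass, and the mTORC1 genes MTOR and RPTOR were under the read filter. FLCN, the activating protein for RagC and RagD, had 53.2, 23.5 and 33.8 CPM, a mean of 36.8 ± 15.0 (SD, n = 3). It just missed the threshold, with a log2 ratio of 1.57 ± 0.66 (SE; edgeR adjusted p = 0.0554), and passed with limma-trend (1.43) and without replicate 2 (1.34). The kinase gene MTOR had 5, 2 and 364 reads and RPTOR, the raptor scaffold that binds the Rag GTPases, had 0, 0 and 95. Both reached 10 reads in replicate 3 alone.

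Of the MiT/TFE factors, TFEB and TFEC were tested, and neither passed with any of the 3 tools. TFEB, the regulator of lysosomal genes, had 283, 1118 and 381 reads, or 7.49, 39.9 and 9.26 CPM (log2 ratio of 0.66 ± 1.14 SE; edgeR adjusted p = 0.834). Its mean of 18.9 ± 18.2 CPM (SD, n = 3) was 24.6, 8.38 and 23.7 without replicates 1, 2 and 3. Its log2 ratio was -0.00879, -1.02 and -0.29 in the same order. Each of these ratios is to the median of the genes tested in the libraries kept, not to the median over all 3 libraries. TFEC, which mouse macrophages express, had 589, 8 and 589 reads. Of 14 gene IDs matched for macrophages and microglia, 3 were tested, and their summed level was 1084, 1024 and 2928 CPM in replicates 1, 2 and 3, mostly apoeb. Of the 3 tested, apoeb and cd74a stood above the median gene, beside 23.4% of all tested genes. The myeloid factor gene SPI1, with 7, 1500 and 14 reads, did not pass. The gene cd74a had 3530, 6890 and 22496 reads, csf1ra had 0, 3 and 102, and P2RY12 had 0. Their part in the TFEB and TFEC reads was not tested. TFE3 had 3, 1 and 61 reads and tfe3b had 0. The MITF copies, of which mitfa is the pigment cell factor in zebrafish, had 0 reads and 0, 1 and 0, and of 5 matched pigment cell genes 4 had 0 reads.

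Replicates differed in which members they covered. Of the 11 members with 10 reads in a single library, 10 had them in replicate 3 (90.9%, beside 59.6% of 4579 gene IDs with a symbol that were read in a single library). These 10 genes had between 10 and 484 reads in replicate 3 and at most 5 in another library; they include MTOR, RPTOR, LAMTOR1, ATP6V1D, TPCN1 and atp6ap1b. Replicate 3 was also the library with the highest macrophage and microglia sum, given above. The leukocyte gene ptprc had 8, 1 and 237 reads in replicates 1, 2 and 3, whereas the myeloid gene SPI1 had 7, 1500 and 14. Some genes of other cell classes were also read mainly in replicate 3. The neuron gene gap43 had 0, 0 and 282 reads and the erythrocyte gene hbaa1 had 0, 2 and 112. By contrast, the neuron gene nefla had 18, 1006 and 10. The part of any of these cell classes in the reads of the 10 members was not tested. In 13 of the 32 tested members (40.6%, beside 54.1% of all tested genes), the highest library had at least 10 times the reads of the lowest. The low library was replicate 2 in 10 of these 13, beside 57.4% of all such tested genes. In the 13 called members the highest library was between 1.33 and 6.97 times the lowest in CPM; the call itself favours genes with a small spread. Summed over all 66 members, the level was 1657, 1851 and 1423 CPM in replicates 1, 2 and 3.

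Among members tested at 10 to 50 CPM, 12 of 18 had a coefficient of variation under the median of all tested genes at that level, 0.863. Among those at 50 to 200 CPM, 5 of 10 lay under the median, 0.420.

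Other genes of the pathway were followed through 6 lists, of which 121 gene IDs were found and 77 were tested. Of these 77, 25 stood above the median gene, 0 below and 52 did not pass, beside 23.4% above and 1.24% below among all tested genes. An unadjusted p under 0.05 put 0 of them below with edgeR; at the adjusted threshold limma-trend put 7 below and DESeq2 0. Counts are given list by list, to be read beside the same 23.4% above, and differences between lists were not tested.

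Calls were found among both lysosome membrane and autophagosome genes. Of 20 tested genes on the list of lysosome membrane proteins, which also holds the soluble NPC2, 8 stood above the median gene. This stands beside 23.4% of all tested genes. The tetraspanin gene CD63 had 1170, 848 and 1250 CPM in replicates 1, 2 and 3, a mean of 1090 ± 213 (SD, n = 3). A copy of the cholesterol carrier gene NPC2 averaged 659.7 ± 119 CPM, whereas the second NPC2 copy averaged 7.82 ± 1.66 CPM and did not pass. The lysosomal glycoprotein genes LAMP2 and lamp1b averaged 267 ± 22.8 and 143 ± 52.8 CPM, and the other LAMP1 copy had 0 reads. TMEM175, a lysosomal potassium and proton channel gene, had 0 reads. Of 15 tested autophagosome and receptor genes 5 stood above. The ATG8 family gene gabarapb averaged 549 ± 65.9 CPM, the ubiquitin receptor gene SQSTM1 162 ± 57.8, MAP1LC3A 154 ± 64.1 and MAP1LC3B 76.6 ± 78.7, with 5986, 42 and 2878 reads of the last. Without replicate 1 the mean of MAP1LC3B was 35.7 CPM and its call was lost (log2 ratio of 0.90). The call was also lost without replicate 3 (1.67), where the mean was 80.0 CPM.

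Of 14 tested genes among mTOR complex subunits, mTORC1 substrates and the Rheb and TSC input, 5 stood above the median gene. The gene named rhebl1 in the symbol table, a homologue of the GTPase Rheb that activates mTORC1, had 1157, 2233 and 784 CPM in replicates 1, 2 and 3, a mean of 1391 ± 753 (SD, n = 3) and a log2 ratio of 6.84 ± 0.35 (SE; edgeR adjusted p = 1.62e-13), whereas rheb had 0 reads. MAPKAP1, a subunit of mTORC2, averaged 157 ± 74.4 CPM and the mTORC1 substrate gene eif4ebp1 averaged 146 ± 41.1. MLST8, a subunit shared by both mTOR complexes, averaged 57.8 ± 67.5 CPM. It had 18.9 CPM and no call without replicate 2 (log2 ratio of 0.16), and 75.4 CPM and no call without replicate 3 (1.36).

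Amino acid sensors and pump assembly factors had 1 call each. Of 14 tested genes upstream of the Rag GTPases, sesn3, a sestrin that restrains mTORC1, alone stood above the median gene, at 102, 33.7 and 40.3 CPM in replicates 1, 2 and 3 (log2 ratio of 2.24 ± 0.53 SE; edgeR adjusted p = 0.000729). Its mean of 58.7 ± 37.9 CPM (SD, n = 3) was 37.0 without replicate 1, where the call was lost (log2 ratio of 0.76). The call was also lost without replicate 3 (1.38), where the mean was 68.0 CPM. SESN1 averaged 36.5 ± 6.19 CPM, the GATOR1 subunit gene NPRL2 29.4 ± 14.0 and the KICSTOR subunit gene KPTN 27.9 ± 17.3, and none of these 3 passed. Of 6 tested assembly genes VMA21, a chaperone for V0 assembly in the endoplasmic reticulum, alone stood above the median gene, at 74.1, 142 and 51.3 CPM (log2 ratio of 2.88 ± 0.46 SE; edgeR adjusted p = 9.98e-06). TMEM9B, TMEM199 and ccdc115 averaged 17.3 ± 3.10, 9.24 ± 10.8 and 7.92 ± 9.80 CPM and did not pass. The TCIRG1 copies had 45, 387 and 218 reads and 0, 275 and 24 reads, and did not pass. The assembly scaffold genes DMXL1 and DMXL2 had 0, 0 and 74 reads and 2, 1 and 190 reads.

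Calcineurin and 14-3-3 genes act on TFEB in opposite directions, by removing its phosphate or holding it in the cytosol. Of 8 tested genes, the 5 of the 14-3-3 family stood above the median gene with all 3 libraries, and the 3 of calcineurin did not pass. A difference between the families was not tested. The calcineurin genes ppp3ca, PPP3R1 and PPP3CC had log2 ratios of 0.76 ± 1.03, -0.26 ± 1.42 and -3.36 ± 1.33 (SE). The 14-3-3 gene ywhaz had 2368, 209 and 2904 reads in replicates 1, 2 and 3 (log2 ratio of 1.90 ± 0.64 SE, edgeR adjusted p = 0.0135). The YWHAB copies averaged 82.1 ± 29.6 and 72.5 ± 58.0 CPM, ywhaqa 79.0 ± 64.5 and ywhaqb 52.5 ± 18.3 (SD, n = 3). Without replicate 2 the means of the second YWHAB copy and of ywhaqa were 39.3 and 42.0 CPM. Of these 4 genes, each lost its call without at least 1 library: all 4 without replicate 3, the second YWHAB copy also without replicate 2 and ywhaqb also without replicate 1. Without replicate 3 the means were 72.1 and 85.9 CPM for the YWHAB copies, 93.8 for ywhaqa and 61.4 for ywhaqb.

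**Figure D4:**
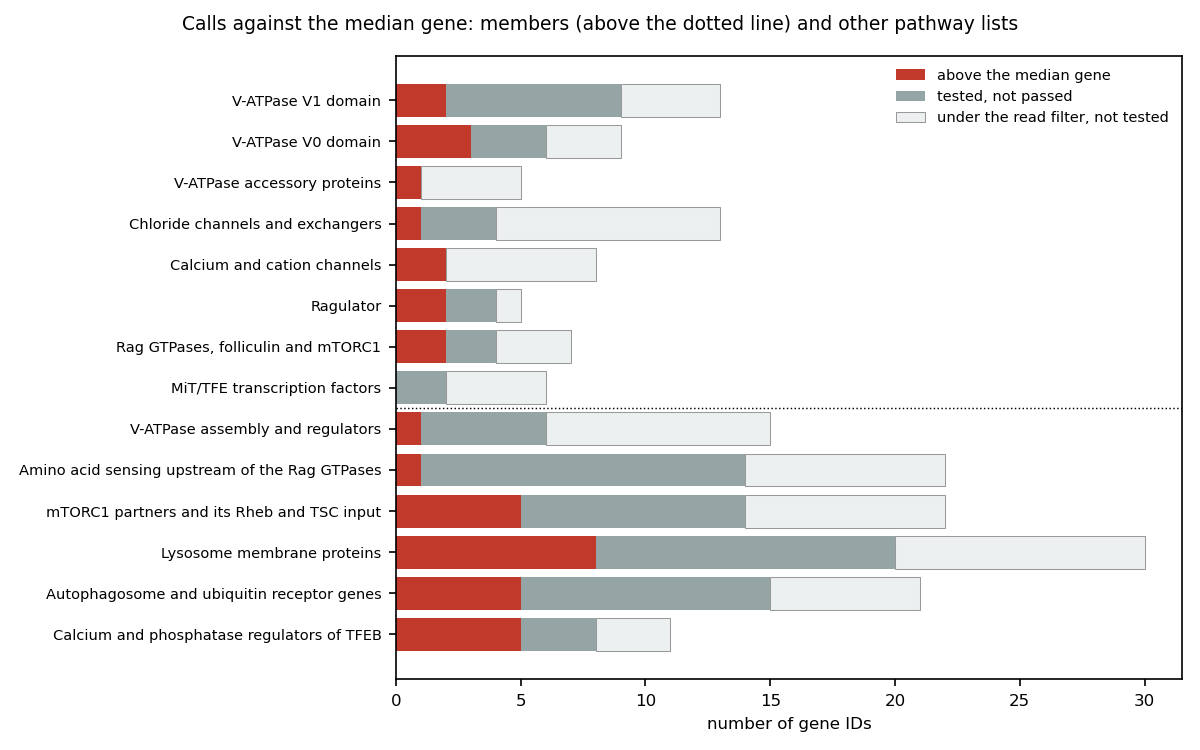
Number of gene IDs that stood above the median gene (red), were tested and did not pass (grey) or fell under the read filter (pale, outlined), for the 8 role groups of the 66 members (above the dotted line) and the 6 lists of other pathway genes (below it). Untested copies make up most of the ClC and channel groups, with 9 of 13 and 6 of 8. They also make up most of the accessory protein and MiT/TFE groups, where 1 of 5 and 2 of 6 were tested. In Ragulator 1 of 5 was untested.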

How the data were processed

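The authors deposited counts, whole-number reads per Ensembl gene ID and library, and a YuGene abundance, a fraction from 0 to 1 per gene and library, which no result here uses. Per the submitters' processing notes, GRCz10, bcl2fastq and R 3.2.2 were used; the sources used here name no aligner, counting program or strand setting. Columns of the count file, named pvLEC, were matched to the muLEC samples by number. Symbols came from a table of gene IDs, which covered 26269 of 32105. Members and lists were chosen with earlier results of these data known. Symbols of the lists were matched ignoring case, or by the stem without a final a or b; 10 of 129 pathway symbols were not matched.

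The filter kept genes that reached 10 reads in 2 of the libraries. The intercept of an edgeR 4.0.16 quasi-likelihood fit was tested against each library's median count over tested genes. The steps of glmQLFTest were written out because it takes no design of a single column. They were run on simulated counts, drawn gene by gene with the spread fitted to these data. Such counts hold no loss of genes shared within a library, so they cannot show how the test fares with it. Each of the 3 libraries is its own pool of brains. The p-values set a gene's level against the median gene, judged by the spread between the libraries. That spread was estimated with information from all tested genes and can hold sorting and amplification differences besides those between pools. Since RNA was amplified, reads do not count molecules one by one, and limits from counts cover counting error alone. Alternatives used DESeq2 1.42.0, limma 3.58.1, other references and filters, and libraries left out. The fits and shares per coding length were not run, since coding lengths were not used here. Named genes are every tested member, untested copies of a named subunit, and up to 4 highest by mean CPM of each pathway list. Others were chosen after their values were seen. They are TMEM175, rheb, TCIRG1, DMXL1, DMXL2, ywhaz, the tested calcineurin genes, the second copies of NPC2 and LAMP1, and the other untested members with values.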

Additional observations from a re-analysis of the deposited data

How the results depend on the processing

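No paired analysis was possible because the samples form a single group. The planned fits and shares per coding length were not run. The count of 13 members above the median gene was 11 with DESeq2 and 14 with limma-trend, beside 22.3% and 23.0% of all tested genes. It was 11 with a TMM or a DESeq2 size factor reference, beside 21.5% with each. A filter of 1 CPM in 2 libraries gave 9 of 32 tested, beside 22.8%. A filter of 10 reads in all libraries gave 8 of 25, beside 25.3%. With no filter it was 32 of 54 tested, where 45.5% of all 18455 tested genes lay above. It was 7 to 11 with each library left out, where 21.1% to 27.2% of all tested genes lay above. With counts under 2% of a gene's highest library removed, an alternative chosen after seeing the data, it was 10, beside 21.4%. The count below was 1 with limma-trend, beside 14.7% of all tested genes. Without replicates 1, 2 and 3 it was 2, 0 and 0, beside 321 of 5065, 480 of 5818 and 215 of 4444 tested genes. For the pathway genes the count above was 13 with 10 reads in all libraries, beside 25.3% of all tested genes, and 84 with no filter, beside 45.5%. It was 11 to 25 with a library left out, beside 21.1% to 27.2%. Their count below was 7 with limma-trend, beside 14.7%, and 3 with 10 reads in all libraries, beside 219 of 4108 tested genes. Without replicates 1, 2 and 3 it was 3, 1 and 3, beside the same counts of all tested genes as for the members. Each filter and each set of libraries kept had its own tested genes and its own median, so these counts are not against 1 reference. With no filter any gene with a read was tested, and the log2 ratio of ATP6AP2 was 11.5, beside 3.96 in the main fit. How much of each move came from the reference was not tested. The sign changes listed next were of members that had not passed; ATP6V0A1 without replicate 1 passed as below, and the 6 with no filter passed as above. With 10 reads in all libraries the ratios were -0.10 (CLCN3), -0.39 (ATP6V1A), -0.47 (ATP6V0B), -0.44 (ATP6V1C1), -0.70 (TFEB), -0.68 (LAMTOR2), -0.60 (atp6v1e1b), -0.71 (ATP6V1H) and -0.84 (ATP6V0A1). With limma-trend they were -0.14 (ATP6V0B), -0.25 (ATP6V1C1), -0.12 (atp6v1e1b), -0.39 (atp6v1e1a), -0.83 (ATP6V1H) and -0.99 (ATP6V0A1), and with 1 CPM in 2 libraries -0.0211 (ATP6V0A1). With no filter they were 7.58 (ATP6V0C, second copy), 6.32 (TFEC), 5.87 (ATP6V1B2, second copy), 5.62 (LAMTOR5), 5.66 (CLCN7) and 4.32 (rragcb). With a library left out they ran from -0.49 to 0.79 (ATP6V1A), -1.09 to 0.74 (ATP6V0B), -1.71 to 0.78 (ATP6V1C1), -1.02 to -0.00879 (TFEB), -1.03 to -0.0486 (LAMTOR2), -1.23 to 0.59 (atp6v1e1b), -3.22 to 0.52 (ATP6V1H) and -3.50 to 0.27 (ATP6V0A1).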
